A study of Rattus norvegicus with 6 samples.

Results

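Voltage-gated sodium, calcium and HCN channel genes encode the membrane proteins that set when a neuron fires and releases transmitter. The genes were taken as a fixed list of 31 symbols covering pore-forming and auxiliary subunits, and all 31 were found among the 35362 symbols of the mRNA tables, 30 under their own symbol and Scn2a under its older symbol Scn2a1. The RNA came from hippocampus of Sprague-Dawley rats gavaged daily for 7 weeks with benzo[a]pyrene (B[a]P), a combustion-derived polycyclic aromatic hydrocarbon, at 2.0 mg/kg in corn oil, or with the same volume of corn oil alone (control). Age was labelled as 7 weeks for all 6 samples of the series, without saying whether this is at the start or at the end of gavage. Each condition had 1 RNA-seq library, 1 library of RRBS (bisulfite sequencing of a CpG-rich subset of the genome, which gives the methylated share of reads at single cytosines) and 1 miRNA-seq library, which was not used here. With 1 library per group there is no replicate error and no test, and every difference below is between 2 libraries, not between the conditions. The labels speak of a treated rat and a control rat, give no number of animals, and do not say whether RNA and DNA came from the same animal.

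Sodium channel alpha subunits form the pore that carries the rising phase of the action potential, and beta subunits are single-pass membrane proteins that modulate its gating and anchor it. Calcium channel alpha1 subunits form the pores through which depolarisation admits calcium; the high-voltage-activated ones drive transmitter release and calcium signalling to the nucleus, and the T-type ones open near the resting potential. The alpha2delta and beta subunits bring high-voltage-activated calcium channels to the membrane, HCN channels open on hyperpolarisation and pass a pacemaker current, and NALCN carries a resting sodium leak. In hippocampal pyramidal cells these channels sit in different parts of the cell, with sodium channels dense at the axon initial segment and HCN channels in distal dendrites.

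The promoters of 6 members could be placed in the RRBS tables. Of these, 4 are shown because they span the range from highly expressed genes to genes with very low values. Cacna2d1 and Cacna1b encode neuronal calcium channel subunits, Scn4a the sodium channel of skeletal muscle, and Scn10a a sodium channel of sensory neurons. Each window runs from 250 bases before to 50 bases after the annotated start, 5′ to 3′ on the strand of the gene, from RefSeq (assembly GRCr8). Capitals mark the CpGs with a measured methylation level, in both libraries for Cacna2d1, Cacna1b and Scn4a and in the B[a]P library for Scn10a.
Cacna2d1 promoter (chr4:20329825-20330124, minus strand): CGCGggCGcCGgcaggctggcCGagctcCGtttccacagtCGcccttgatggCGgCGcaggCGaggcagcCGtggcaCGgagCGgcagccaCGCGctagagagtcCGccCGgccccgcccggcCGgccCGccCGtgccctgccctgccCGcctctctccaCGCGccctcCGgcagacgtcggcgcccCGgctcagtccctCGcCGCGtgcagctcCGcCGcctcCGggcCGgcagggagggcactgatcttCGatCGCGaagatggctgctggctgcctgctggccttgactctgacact
Cacna1b promoter (chr3:27944236-27944535, minus strand): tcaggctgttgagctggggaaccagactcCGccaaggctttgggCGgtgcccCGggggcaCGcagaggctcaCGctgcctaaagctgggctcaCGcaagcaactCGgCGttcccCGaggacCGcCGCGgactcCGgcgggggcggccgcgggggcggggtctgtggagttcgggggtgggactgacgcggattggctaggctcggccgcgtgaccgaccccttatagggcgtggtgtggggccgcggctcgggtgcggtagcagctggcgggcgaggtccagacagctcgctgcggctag
Scn4a promoter (chr10:91796275-91796574, minus strand): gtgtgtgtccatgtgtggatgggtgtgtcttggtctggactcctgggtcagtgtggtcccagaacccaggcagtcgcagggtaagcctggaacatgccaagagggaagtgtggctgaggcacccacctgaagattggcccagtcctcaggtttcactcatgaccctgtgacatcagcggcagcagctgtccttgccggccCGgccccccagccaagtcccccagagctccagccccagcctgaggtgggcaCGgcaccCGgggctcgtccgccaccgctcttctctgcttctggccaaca
Scn10a promoter (chr8:128340249-128340548, minus strand): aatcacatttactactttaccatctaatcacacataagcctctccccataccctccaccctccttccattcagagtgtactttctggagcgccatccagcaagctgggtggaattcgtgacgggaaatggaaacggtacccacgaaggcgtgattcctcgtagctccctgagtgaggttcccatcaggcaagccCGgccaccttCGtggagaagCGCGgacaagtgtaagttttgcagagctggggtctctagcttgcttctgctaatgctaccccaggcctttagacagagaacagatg

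Levels are in FPKM, fragments normalised for transcript length and library size, a scale on which genes of different length can be compared. The authors' labels do not state this unit, which was taken from the values. Differences are given as the plain ratio of the libraries and as the log2 ratio of B[a]P to control after adding 1 FPKM to both, which shrinks the ratio of low genes. A gene was counted as above the floor at 1 FPKM in either library, which 25 of the 31 members and 13261 genes in all reached. Steps between low values put the depth of control relative to B[a]P at 1.06, and the total number of reads is not known, so no counting interval can be given for FPKM values.

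The members spanned a wide range of levels, and their order was nearly the same in both libraries. The beta subunit genes Scn3b and Scn2b were the highest. Scn3b was at 98.8 FPKM with B[a]P and 91.2 FPKM with corn oil, and Scn2b at 96.6 FPKM with B[a]P and 85.9 FPKM with corn oil. They were followed in both libraries by Scn2a and Scn8a, the main sodium pores of excitatory neurons, and by Cacna1e, the R-type calcium pore. Because there is no spread between replicates, the order of neighbouring members such as Scn3b and Scn2b cannot be called beyond error. In summed FPKM the 20 pore-forming genes reached 230.2 with B[a]P and 200.5 with corn oil, and the 11 auxiliary genes 307 with B[a]P and 277 with corn oil.

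**Figure D1:**
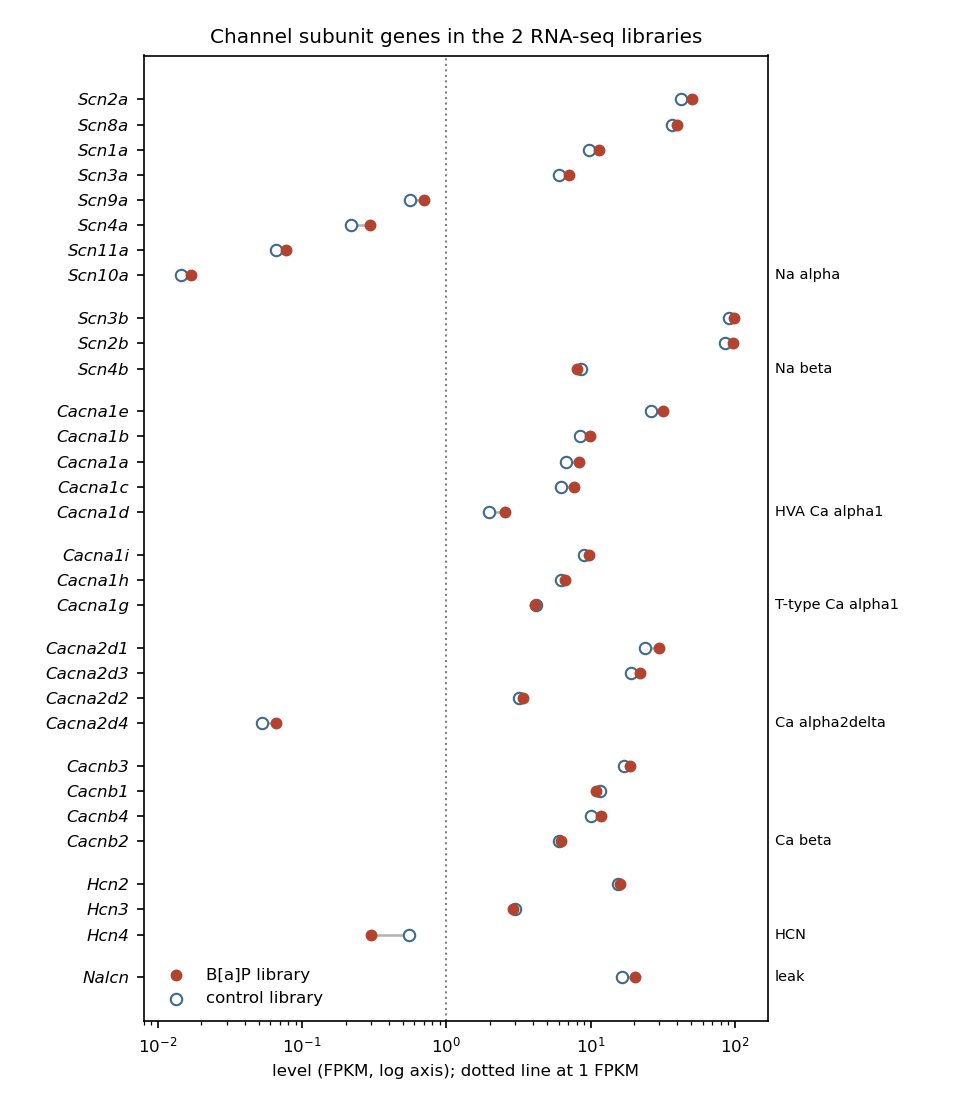
Level of each of the 31 members in FPKM on a log axis, by subfamily, in the B[a]P library (filled) and the control library (open), 1 library each; the dotted line is the floor of 1 FPKM. The pairs lie close together over the whole range, Hcn4 has the widest gap, and 6 members are below the floor in both libraries.

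Most members were somewhat higher in the B[a]P library, as were most genes. Of the 25 members above the floor, 21 were higher and 4 lower, against 74.5% of all genes above the floor that were higher. The median log2 ratio of the members was 0.17, against 0.09 for all genes, and 17 members (68%) lay above the all-gene median. On this scale 4 members (16%), namely Cacna2d1, Nalcn, Cacna1a and Cacna1e, passed 1.2-fold upwards, where 8.4% of all genes did, and 0 passed it downwards, where 3.67% did. None was at least 1.5-fold higher (0.603% of all genes) or 1.5-fold lower (1.18%), and none reached 2-fold in either direction (0.151% of all genes upwards and 0.52% downwards). All 25 lay inside the central 95% of all genes, which ran from -0.35 to 0.37; 12 lay above the upper quartile of all genes and 4 below the lower quartile.

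The count of 4 depended on the scaling of the libraries. It was 0 of 25 when each library was divided by its median, where 3.8% of all genes passed, and 16 of 25 when each was scaled to a sum of 1000000, where 34.7% of all genes passed, a step that raised the all-gene median by 0.13. A single line held 78.8% of the summed FPKM of the B[a]P library and 81.7% of that of the control library. Differences are therefore best read against the all-gene median of 0.09. Members at 20 to 100 FPKM had a median log2 ratio of 0.20 over 7 genes, against 0.11 for all 2206 genes of that level. Those at 5 to 20 FPKM had 0.16 over 14 members, against 0.09, and those at 1 to 5 FPKM 0.02 over 4 members, against 0.07.

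**Figure D2:**
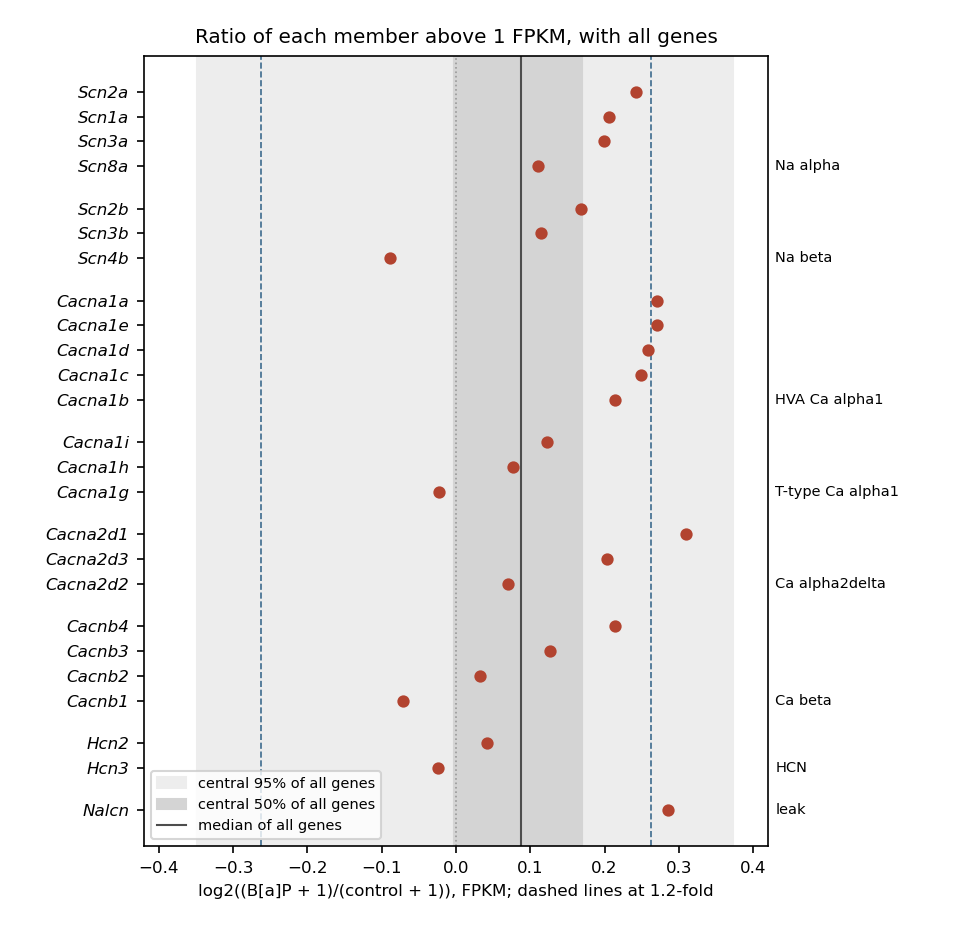
Log2 ratio of B[a]P to control, after adding 1 FPKM, for the 25 members above the floor, by subfamily, with the central 50% and 95% of all 13261 genes (grey bands), their median (solid line) and 1.2-fold (dashed lines). The high-voltage-activated calcium pores lie together at 0.21 to 0.27, the HCN genes lie near 0, and no member leaves the outer band.

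Among sodium pores, 4 of the 8 genes were above the floor. All 4 were higher with B[a]P, as were 74.5% of all genes, with log2 ratios of 0.11 to 0.24. Scn2a, which encodes Nav1.2, was at 50.4 FPKM with B[a]P and 42.5 FPKM with corn oil, 1.19 times as high. Scn8a, which encodes Nav1.6, the channel of the mature axon initial segment, was at 39.5 FPKM with B[a]P and 36.6 FPKM with corn oil, 1.08 times as high. Its log2 ratio of 0.11 lay close to the all-gene median, while Scn2a at 0.24 exceeded 89.2% of all genes. Scn1a, which encodes Nav1.1, prominent in fast-spiking interneurons, was at 11.5 FPKM with B[a]P and 9.80 FPKM with corn oil. Scn3a, which encodes the mainly embryonic Nav1.3, was at 7.14 FPKM with B[a]P and 6.09 FPKM with corn oil. Both had ratios of 1.17. Scn1a also has a line in the authors' lncRNA table, with other values, at 5.30 FPKM with B[a]P and 4.77 FPKM with corn oil (ratio 1.11).

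Scn2a and Scn8a together made up most of the sodium pore message. Scn2a held 46.0% of the summed FPKM of the 8 genes with B[a]P and 44.3% with corn oil, and Scn8a 36.1% with B[a]P and 38.2% with corn oil. The sodium pores of other tissues were among the lowest of the 31 members in both libraries. Scn9a (Nav1.7 of sensory and sympathetic neurons) was at 0.698 FPKM with B[a]P and 0.560 FPKM with corn oil, and the muscle gene Scn4a at 0.294 FPKM with B[a]P and 0.220 FPKM with corn oil. Scn11a (Nav1.9) was at 0.0772 FPKM with B[a]P and 0.0656 FPKM with corn oil, and Scn10a (Nav1.8) at 0.0170 FPKM with B[a]P and 0.0144 FPKM with corn oil. No direction is read from these 4 genes. For Scn10a and Scn11a the ratio, corrected for depth, corresponds to 10 reads with B[a]P and 9 with corn oil or to a multiple of that pair.

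The sodium beta subunits differed in direction. Scn2b and Scn3b, whose levels are given above, had log2 ratios of 0.17 and 0.11. Scn4b, the subunit linked to resurgent sodium current, was at 7.996 FPKM with B[a]P and 8.57 FPKM with corn oil, with a log2 ratio of -0.09 that exceeded only 12.02% of all genes. With each library scaled to a sum of 1000000, Scn4b was higher with B[a]P, as were all 25 members, among them Cacnb1, Cacna1g and Hcn3. That scaling also put the all-gene median log2 ratio at 0.22. With each library divided by its median, Scn4b was at -0.17 and 18 of 25 members were higher, with an all-gene median of 0.01. The share of all genes that were higher was not counted for these 2 scalings.

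The 5 high-voltage-activated calcium pores lay within a narrow range. All 5 were higher with B[a]P, as were 74.5% of all genes above the floor. Their log2 ratios were 0.21 to 0.27, with a median of 0.26. With each library divided by its median they were 0.13 to 0.20, and 0 passed 1.2-fold. The summed FPKM of the 5 was 60.3 with B[a]P and 49.6 with corn oil, 1.22 times as high. Cacna1e, the R-type pore, was at 31.9 FPKM with B[a]P and 26.3 FPKM with corn oil and held 52.9% of the subfamily's FPKM in both. Cacna1a, the P/Q-type pore of most central release sites, was at 8.32 FPKM with B[a]P and 6.72 FPKM with corn oil, 1.24 times as high. Cacna1b, the N-type pore, was at 9.91 FPKM with B[a]P and 8.40 FPKM with corn oil, 1.18 times as high. These 3 genes supply presynaptic calcium. The L-type pores Cacna1c and Cacna1d couple activity to transcription. Cacna1c was at 7.65 FPKM with B[a]P and 6.27 FPKM with corn oil (ratio 1.22), and Cacna1d at 2.54 FPKM with B[a]P and 1.96 FPKM with corn oil (ratio 1.30). On the scale with 1 FPKM added, only Cacna1a and Cacna1e of the 5 passed 1.2-fold, at 0.27 each; the other 3 lay at 0.21 to 0.26, just inside it.

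The 3 T-type pores lay lower, at log2 ratios of -0.02 to 0.12. Cacna1i (Cav3.3) was at 9.83 FPKM with B[a]P and 8.95 FPKM with corn oil. Cacna1h (Cav3.2) was at 6.68 FPKM with B[a]P and 6.28 FPKM with corn oil; its log2 ratio of 0.08 became -0.0001 when libraries were scaled to their medians. Cacna1g (Cav3.1), the main T-type channel of thalamic relay cells, was at 4.11 FPKM with B[a]P and 4.19 FPKM with corn oil. The ranges of the T-type and high-voltage-activated pores did not overlap; with 1 library a group this is a description of these libraries.

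The auxiliary calcium channel subunits were spread over the whole range. Cacna2d1, the gabapentin-binding alpha2delta subunit, was at 29.8 FPKM with B[a]P and 23.8 FPKM with corn oil. Its log2 ratio of 0.31 was the highest of the 25 members above the floor, above 95.02% of all genes; its plain ratio was 1.25, below the 1.30 of the lower gene Cacna1d. Cacna2d3 was at 22.1 FPKM with B[a]P and 19.1 FPKM with corn oil (log2 ratio 0.20), and Cacna2d2, which is prominent in cerebellum, at 3.40 FPKM with B[a]P and 3.19 FPKM with corn oil (0.07). Cacna2d4, a retinal subunit, was nearly absent at 0.0658 FPKM with B[a]P and 0.0528 FPKM with corn oil. Cacna2d1 held 53.8% of the alpha2delta FPKM with B[a]P and 51.6% with corn oil.

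The cytoplasmic beta subunits, which mask a retention signal of the pore and tune its gating, differed among themselves. Cacnb4 was at 11.8 FPKM with B[a]P and 10.04 FPKM with corn oil (log2 ratio 0.21), and Cacnb3 at 18.9 FPKM with B[a]P and 17.2 FPKM with corn oil (0.13). Cacnb2 was at 6.23 FPKM with B[a]P and 6.07 FPKM with corn oil; its log2 ratio of 0.03 became -0.04 when libraries were scaled to their medians. Cacnb1 was lower in the B[a]P library, at 11.0 FPKM against 11.6 FPKM with corn oil (-0.07). Cacnb1 made up 22.9% of the beta subunit FPKM with B[a]P and 25.8% with corn oil, and Cacnb4 24.7% with B[a]P and 22.4% with corn oil. Their order was exchanged between the libraries.

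**Figure D3:**
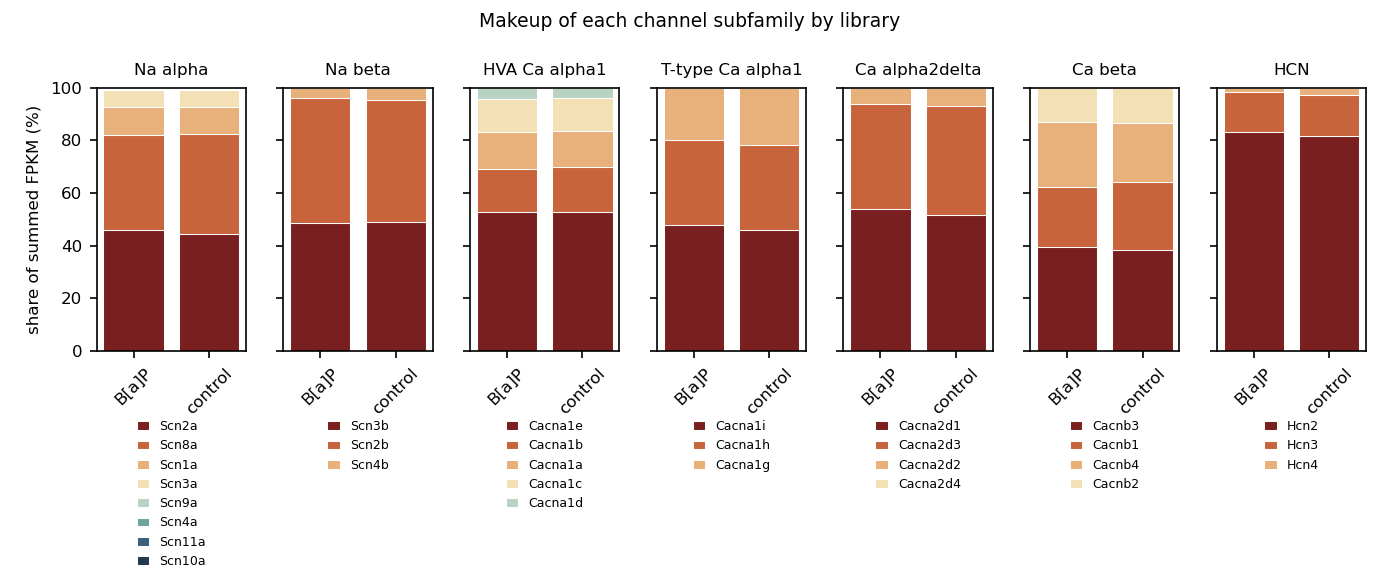
Share of each gene in the summed FPKM of its subfamily, in percent, in the B[a]P library (left bar) and the control library (right bar) of each panel; the single leak channel gene is left out. Shares differ by under 3 percentage points throughout, and the order of genes changes only between Cacnb1 and Cacnb4.

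The HCN genes were nearly level between the libraries where they were expressed. Hcn2 was at 16.0 FPKM with B[a]P and 15.6 FPKM with corn oil, with a log2 ratio of 0.04 that became -0.04 when libraries were scaled to their medians. Hcn3 was at 2.92 FPKM with B[a]P and 2.98 FPKM with corn oil (-0.02). Hcn4, the sinoatrial pacemaker subunit, had the widest ratio of all 31 members at 0.301 FPKM with B[a]P and 0.551 FPKM with corn oil, 1.83-fold lower, but it was below the floor in both. Nalcn, the leak channel, lay nearer the calcium pores than the HCN genes. It was at 20.4 FPKM with B[a]P and 16.6 FPKM with corn oil, 1.23 times as high, with a log2 ratio of 0.29 above 93.5% of all genes.

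Partner genes of the channels were read from fixed lists. Of 12 genes of the axon initial segment and of sodium channel modulation, all were above the floor, with a median log2 ratio of 0.14. Past 1.2-fold there were 2 upwards (8.4% of all genes) and 0 downwards (3.67%). The 2 were Ank2, an ankyrin scaffold gene, at 52.8 FPKM with B[a]P and 42.1 FPKM with corn oil, and Fgf14, an intracellular sodium channel modulator, at 8.74 FPKM with B[a]P and 7.00 FPKM with corn oil. Ank3, the ankyrin G that gathers sodium channels at the initial segment, was at 19.4 FPKM with B[a]P and 17.3 FPKM with corn oil. Of 18 calcium channel partners, 16 were above the floor, with a median of 0.16. Of these, 3 passed 1.2-fold upwards (8.4% of all genes) and 0 downwards (3.67%). The share of all genes past 1.2-fold upwards moved between 3.8% and 34.7% with the scaling of the libraries. Cacng4, a gamma subunit that also serves AMPA receptors, was at 6.48 FPKM with B[a]P and 4.31 FPKM with corn oil; Rimbp2 and Rims1, active zone proteins that tether calcium channels, were 1.33 and 1.28 times as high in the B[a]P library. Of the 4 genes of the NALCN complex, 3 were found and Unc80 was not matched. Unc79 was 1.17, Fam155a 1.08 and Fam155b 1.02 times as high with B[a]P, and the median log2 ratio was 0.11.

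The HCN partners diverged. Pex5l, which encodes the HCN trafficking subunit TRIP8b, was at 41.2 FPKM with B[a]P and 41.9 FPKM with corn oil. Kctd3, an HCN3 modulator, was at 19.0 FPKM with B[a]P and 16.2 FPKM with corn oil. Kcne2, a small membrane subunit that pairs with several channels and is abundant in choroid plexus, was at 0.629 FPKM with B[a]P and 8.90 FPKM with corn oil, 14.1-fold lower. Of 14 choroid plexus and ependymal markers, 13 were above the floor and each of these was lower with B[a]P by 1.2-fold or more (3.67% of all genes). The list summed to 87.2 FPKM with B[a]P and 3538 FPKM with corn oil, and Otx2 was below the floor. The part of this tissue in the value of Kcne2, or in that of Hcn4, was not tested. The 23 voltage-gated potassium channel genes were all above the floor, with a median log2 ratio of 0.13 and 0 genes past 1.2-fold in either direction. Among them Kcna1 at 0.25 and Kcnd3 at 0.24 lay just inside that size. The list of sodium, calcium and HCN channel genes had a median of 0.17 and 4 of 25 past 1.2-fold upwards, where 8.4% of all genes passed. That count was 0 when each library was divided by its median. Whether the families differ cannot be tested with 1 library a group.

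The neuronal marker lists differed among themselves. The pan-neuronal list had a median log2 ratio of 0.19 over 12 genes above the floor, 2 passing 1.2-fold upwards (8.4% of all genes) and 0 downwards (3.67%). Its summed level was 2153 FPKM with B[a]P and 1872 FPKM with corn oil. The median was 0.17 for 6 dentate granule cell genes, 0.04 for 8 CA pyramidal cell genes and 0.09 for 8 interneuron genes, against 0.17 for the channel genes and 0.09 for all genes. Of these dentate, CA pyramidal and interneuron genes, 3, 3 and 4 lay above the all-gene median. Astrocyte markers were at 0.19 over 9 genes, with a summed level of 1141 FPKM with B[a]P and 987 FPKM with corn oil, and oligodendrocyte markers at -0.14 over 10, with a summed level of 1906 FPKM with B[a]P and 2186 FPKM with corn oil. In bulk tissue a larger share of a cell type and more RNA per cell cannot be told apart, and the part of cell makeup in the channel values was not tested. Of the remaining lists, precursor cells of oligodendrocytes were at 0.10, microglia at 0.11, thalamus and habenula at 0.05 and endothelial and meningeal cells at -0.11; of 7 skeletal muscle markers only Acta1 was above the floor. Above the floor were 6 of 8 dentate granule cell genes, such as Prox1 (10.5 FPKM with B[a]P, 8.15 FPKM with corn oil). So were 8 of 9 CA pyramidal cell genes, such as Neurod6 (75.4 FPKM with B[a]P, 71.9 FPKM with corn oil). Past 1.2-fold, the dentate list had 2 genes upwards and 0 downwards, and the interneuron list 0 in either direction. The CA list had 0 upwards and 1 downwards, Pou3f1, at 9.23 FPKM with B[a]P and 11.8 FPKM with corn oil. The astrocyte list had 4 upwards and 0 downwards, and the oligodendrocyte list 1 upwards and 2 downwards. Of all genes, 8.4% passed upwards and 3.67% downwards. Dsp and Lct of the dentate list and Spink8 of the CA list were below the floor in both libraries. The neuronal enolase gene Eno2, which every neuron uses, was at only 0.0865 FPKM with B[a]P and 0.0817 FPKM with corn oil and Npy was listed at 0 in both, so a low value in these tables can be a failed estimate.

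**Figure D4:**
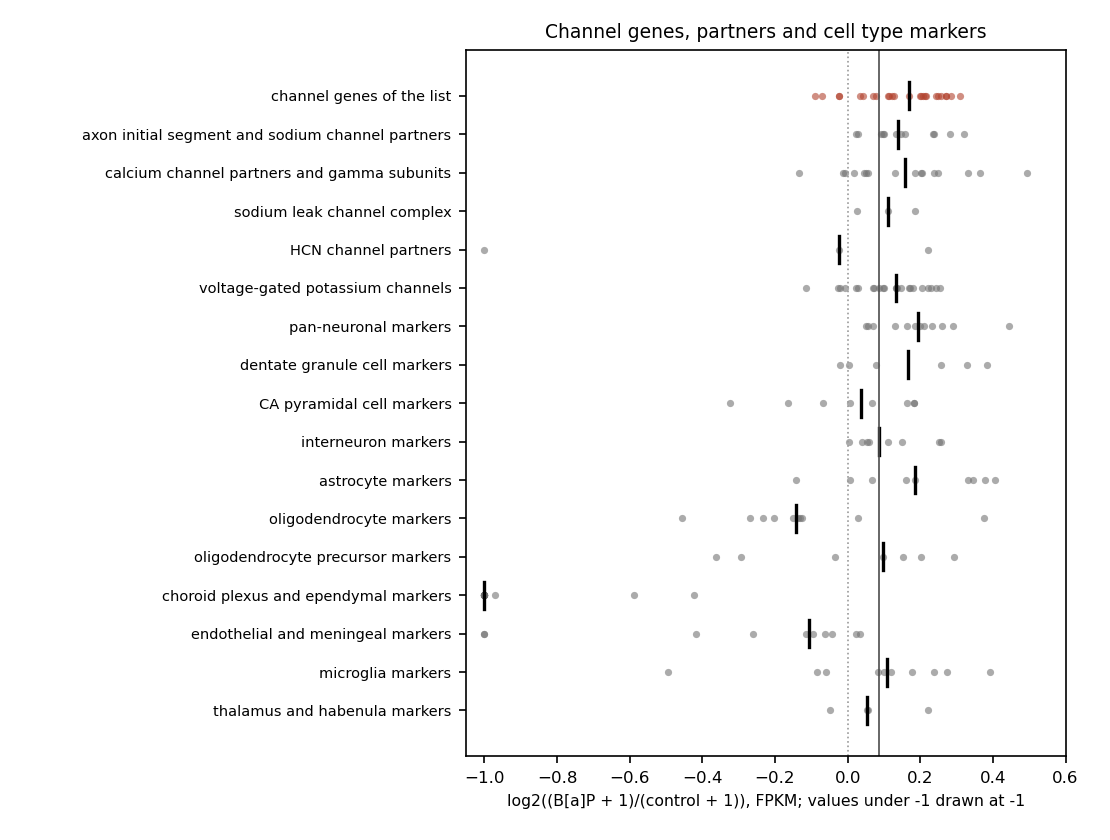
Log2 ratio of B[a]P to control, after adding 1 FPKM, for single genes above the floor (points) and their list median (black bars), for the channel genes (top, red), their partners and cell type markers; the solid line is the all-gene median of 0.09 and values under -1 are drawn at -1. The medians of the channel genes, dentate granule cell markers (0.17), calcium channel partners (0.16), and pan-neuronal and astrocyte markers (0.19 each) lie close together. Those of CA pyramidal (0.04) and interneuron markers (0.09) lie lower, and that of the choroid plexus list lies far below.

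The measured CpG cytosines of Cacna2d1, Scn8a, Cacna1b and Scn4b, all above 5 FPKM, were almost free of methylation in both libraries when pooled by promoter. For Scn8a they covered 4 of the 60 CpGs of the window, at -240 to -218 bases from the start. For Cacna1b they covered 13 of 34, at -221 to -116, and for Scn4b 17 of 24, at -242 to -56. The bases next to the start were thus not measured in Scn8a, Cacna1b and Scn4b. Scn4a and Scn10a were below the floor in both libraries, and such a low value can be a failed estimate, as said above for Eno2 and Npy. The measured cytosines of Scn4a were partly methylated in both libraries. Those of Scn10a were methylated in the B[a]P library, where alone they were measured. In the Cacna2d1 window shown above, 60 CpG cytosines were measured in both libraries and 0.869% of 6671 reads were methylated with B[a]P and 0.993% of 9773 with corn oil (exact 95% intervals 0.661% to 1.12% and 0.806% to 1.21%). In the Cacna1b window, with 25 cytosines, the levels were 0.801% of 2746 reads with B[a]P and 0.9796% of 3777 reads with corn oil. Scn8a, with 7 cytosines, was at 1.77% of 226 reads with B[a]P and 1.13% of 622 reads with corn oil (0.484% to 4.47% and 0.454% to 2.31%). Scn4b, with 26 cytosines, was at 1.28% of 3527 reads with B[a]P and 1.27% of 5435 reads with corn oil. The intervals cover counting error only, and they are too narrow because a read crosses several cytosines.

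None of these 4 promoters differed between the libraries by as much as 5 percentage points, and their intervals overlapped. All 4 were under 5% in both libraries, so a level 5 points lower was not possible. The same limit holds for the 93.1% of all placed promoters that were under 5% in both. Among all 6950 promoters placed with 5 or more CpG cytosines in both libraries, 0.647% were at least 5 points higher and 0.561% at least 5 points lower in the B[a]P library. Low levels were likewise the rule, with a median of 1.003% with B[a]P and 1.23% with corn oil and 93.1% of promoters under 5% in both. The level of Scn4b, the member with the lowest log2 ratio in RNA above the floor, differed between the libraries by far less than the width of its intervals.

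The 4 measured cytosines of Scn4a, close to the start in the sequence shown, were methylated in 29.3% of 82 reads with B[a]P and 33.3% of 150 reads with corn oil, with exact intervals of 19.7% to 40.4% and 25.9% to 41.5% that overlap. At the Scn10a promoter, 4 cytosines had 72 of 72 reads methylated in the B[a]P library (exact 95% interval 95.01% to 100%), with no control value at 10 reads or more for these sites. Of the 6950 promoters with 5 or more CpG cytosines in both libraries, 5646 have a gene in the mRNA tables. Among them, 84.6% of the 5354 under 5% methylation in both libraries were at 1 FPKM or more, against 22.5% of the 111 at 20% or more in both. Cacna2d1, Cacna1b, Scn8a and Scn4b were among those under 5%. Scn4a, with 4 cytosines, and Scn10a, with no control value, were in neither set.

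**Figure D5:**
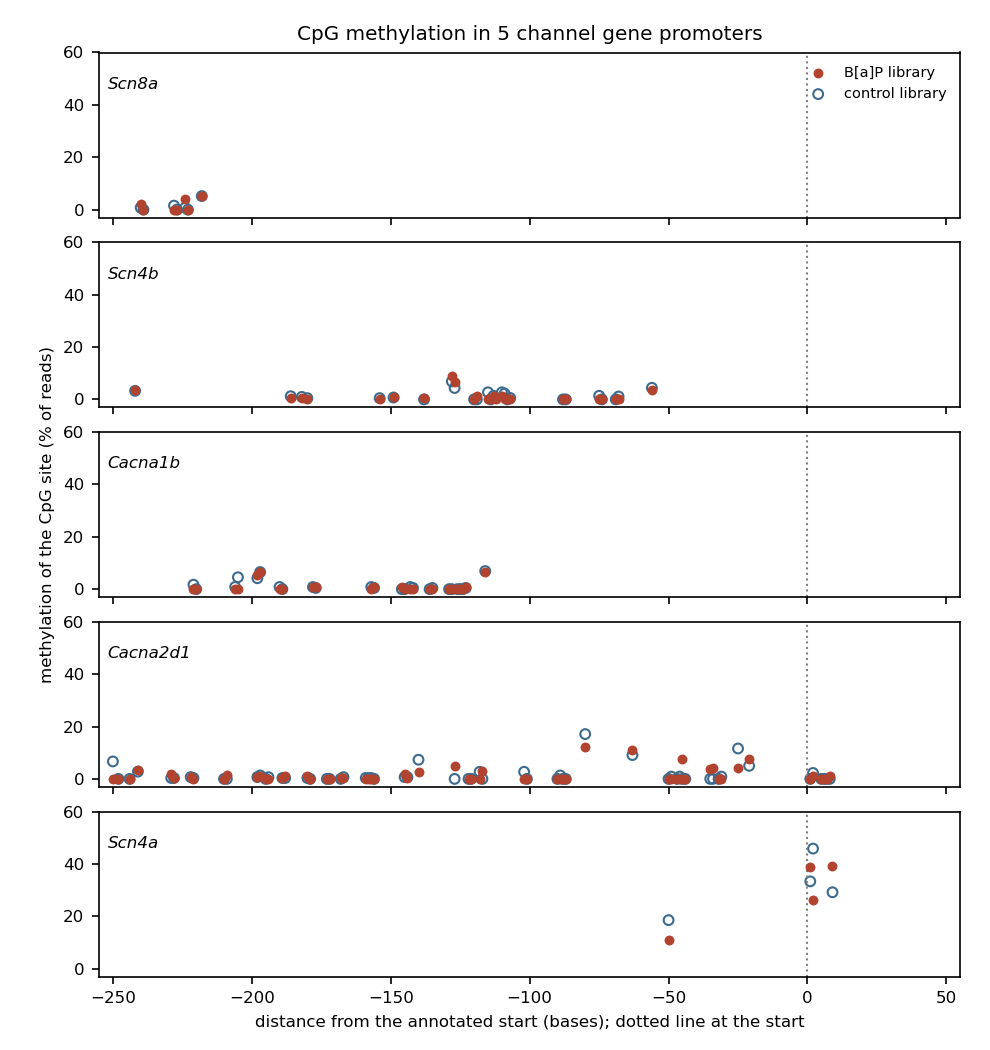
Methylation of single CpG cytosines, in percent of reads, by distance in bases from the annotated start for 5 members, in the B[a]P library (filled) and the control library (open); Scn10a, with no control value, is left out. Cytosines of Scn8a, Scn4b, Cacna1b and Cacna2d1 stay at or under 17.1% with many at 0, and the 4 of Scn4a lie between 11.1% and 45.8%.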

How the data were processed

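Hippocampal RNA and DNA were sequenced in 1 library per condition, grouped by the sample titles. Per the submitters' processing notes, bcl2fastq and the builds rn5 and rn6 were used, with no roles stated. In the sources used here, the aligner, counter and methylation caller are not given. The authors deposited FPKM values per symbol (unit inferred from the values), and RRBS tables with counts of methylated and unmethylated reads and the methylation level in percent per cytosine, per the file headers, at 10 reads or more.

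Log2 ratios were computed after adding 1 FPKM, keeping genes with 1 FPKM in at least 1 library, with Python 3.11.15 and pandas 2.3.3; no test was possible. The counting was tested on simulated data. Members, lists and thresholds were chosen with earlier results of these data known, and all 31 members are named. A planned description of levels by protein length was not run, since no protein table was given.

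No rn5 annotation was used. RefSeq promoter windows (GRCr8) were found for 21 members and placed in the RRBS tables without coordinates, by 12 cytosines in a row with the same spacing and context on the same chromosome, a single position, and a match of 98% of the deposited cytosines in the window. This placed 8371 of 33469 windows and 14 of the same windows reversed as a gauge of false placements. For Cacna2d1, the window with most CpGs in both libraries was taken. Exact intervals are Clopper-Pearson at 95% (scipy 1.17.1). The methylation comparison was not in the planned design and was added after the data were seen. The miRNA and remaining lncRNA values were not used. Some related genes are not reported here.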

Additional observations from a re-analysis of the deposited data

How the results depend on the processing

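No paired analysis was possible because each group has 1 library, and for the same reason no library could be left out. Pseudocounts of 0.1 and none, a floor of 5 FPKM or none, and the highest line of each symbol kept the counts of members past each size within 1.5 times the reported value and the median within 0.1. The count at least 1.2-fold higher rose from 4 to 6 of 25 with a pseudocount of 0.1 (13.9% of all genes) and with none (14.7%). Scaling changed more. Divided by library medians, 0 members were at least 1.2-fold higher (3.8% of all genes), and the log2 ratios of Cacna1h (-0.0001), Cacnb2 (-0.0439) and Hcn2 (-0.0426) reversed. Scaled to a sum of 1000000, 16 members were at least 1.2-fold higher (34.7% of all genes) and the median was 0.32. Without lines at 5000 FPKM or more, the same scaling left 0 members past 1.2-fold upwards (10.1% of all genes). Hcn4, then above the floor, was the 1 member past 1.2-fold downwards (9.45% of all genes) and the 1 past 1.5-fold downwards (2.64%). A minimum of 20 reads per cytosine, chosen after seeing the data, left all 10 promoter levels inside their intervals. This is a weak check, since it removed no cytosine of Scn4b or Cacna1b and the other levels rest on part of the same reads. With 1 library a group, no difference between libraries can be set against the spread between animals.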

Other observations

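The promoter windows of 21 members were searched for short motifs on both strands, a member counting where any of its windows held the motif. The core of the aryl hydrocarbon receptor response element, GCGTG, was in 7 of the 21 (33.3%), namely Cacna1b, Cacna1d, Cacna2d1, Cacnb2, Scn10a, Scn2a and Scn3a, against 32.4% of all 27457 genes counted the same way. The GC box GGGCGG was in 10 of the 21 (47.6%), with 10 matches in a window of Cacna1d and 7 each in one of Scn8a and of Cacna2d1, against 36% of all genes. The TATA box sequence TATAAA and the cAMP response element TGACGTCA were in 0 of the 21, against 15.3% of all genes for TATAAA and 2% for TGACGTCA. The motifs other than the TATA box each hold a CpG, and the members held a median of 24 CpGs in their window with most, against 8 for all genes. The members ranged from 2 CpGs in Scn2b to 66 in Cacna1d. Scn2b was among the highest genes of the list in both libraries and Cacna1d among the lowest above the floor.

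Scn7a, Cacna1f and Cacna1s, which are not on the list, were low in both libraries. Scn7a, a sodium-sensing channel gene, was at 0.227 FPKM with B[a]P and 0.225 FPKM with corn oil. Cacna1f, the retinal L-type pore, and Cacna1s, that of skeletal muscle, were under 0.05 FPKM in both.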
